A study of Mus musculus with 18 samples.

Results

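The genes described are 9 transcription factor genes of lateral plate and intermediate mesoderm, Hand1, Hand2, Wt1, Gata4, Gata6, Foxf1, Osr1, Prrx1 and Twist1. They were taken by symbol, matched to the Ensembl ID of each row, and make up 9 of the 37224 genes in the deposited table. Each was followed through all 18 libraries of a study of Hoxb1 in cells that had been differentiated in culture from C57BL/6 mouse embryonic stem cells. Poly(A) RNA was sequenced in 6 groups of 3 libraries. The neuromesodermal progenitors (NMPs), bipotent cells of the embryo's tail end that feed both neural tube and somites, were either Hoxb1 null or wildtype. The neural progenitors (NPs) were labelled as expressing Hoxb1, with DOX (doxycycline, a drug that switches on inducible transgenes) added, or as not expressing Hoxb1, without DOX. Each kind of NP was grown with or without SAG, a small molecule that turns on hedgehog signalling through Smoothened. All groups share the strain label, and which line or clone each came from was not given in the sources used here. Hoxb1 and DOX cannot be told apart in the NPs, and genotype and line cannot be told apart in the NMPs. The labels do not say whether the 3 libraries of a group came from separate cultures, so p-values measure the spread between these libraries, which may be technical.

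Mesoderm of the trunk is laid out from the midline outwards as paraxial, intermediate and lateral plate mesoderm. Intermediate mesoderm gives rise to kidney and gonad and uses Osr1 and Wt1, while lateral plate mesoderm gives rise to heart, limb bud and gut mesenchyme and uses Gata4, Gata6, Hand1, Hand2, Foxf1, Prrx1 and Twist1. Several of these genes also have roles outside mesoderm: Gata4 and Gata6 in endoderm, Hand2 in sympathetic and visceral motor lineages, Twist1 and Prrx1 in cranial neural crest mesenchyme.

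The deposited values are raw read counts per gene, with totals of 16836409 to 19136064 in Hoxb1-null NMPs and 16523276 to 21141058 in wild-type NMPs. In NPs without SAG the totals were 13301476 to 14505711 with Hoxb1 and 13589876 to 13976829 without it, and in NPs with SAG they were 22610407 to 24488882 with Hoxb1 and 22682012 to 26974315 without it. Library numbers fall into 3 sets, 8085 to 8090 for NMPs, 7390 to 7395 for NPs without SAG and 2533 to 2538 for NPs with SAG, so SAG and the library set cannot be told apart. Hoxb1 itself stood at 15.3 ± 0.844 CPM (counts scaled to library size, mean ± SD, n = 3 libraries here and throughout) in Hoxb1-null NMPs and 254 ± 16.1 CPM in wild-type NMPs. NPs expressing Hoxb1 had 323 ± 16 CPM of it and NPs not expressing it had 0.358 ± 0.288 CPM, and in the presence of SAG these groups had 591 ± 21.2 CPM and 0.459 ± 0.0662 CPM. The 6 NMP markers on the list (T, Nkx1-2, Cdx2, Fgf8, Wnt3a and Cyp26a1) summed to 1469 CPM or more in every NMP library and to at most 47 CPM in NPs, and the neural markers Sox1, Sox2, Pax6 and Nes to at least 754 CPM in NPs and at most 351 CPM in NMPs.

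Coordinates below are those of the deposited table (mm10, or GRCm38). Each member's span covers its exons and introns. Promoters are shown for Hand2, Prrx1 and Twist1. Hand1, Wt1, Gata4, Foxf1 and Osr1 had no entry in the promoter set used, and that of Gata6 is not shown. The sequences are those of RefSeq (GRCm38.p6). The stretch directly before the annotated start is printed 5′ to 3′ on the gene's strand, 250 bases long for Hand2 (chr8:57320733-57320982, + strand) and Twist1 (chr12:33957421-33957670, + strand) and 190 bases long for Prrx1 (chr1:163313711-163313900, - strand). Capitals mark matches to the E-box CANNTG, the core site of basic helix-loop-helix factors.
Hand2: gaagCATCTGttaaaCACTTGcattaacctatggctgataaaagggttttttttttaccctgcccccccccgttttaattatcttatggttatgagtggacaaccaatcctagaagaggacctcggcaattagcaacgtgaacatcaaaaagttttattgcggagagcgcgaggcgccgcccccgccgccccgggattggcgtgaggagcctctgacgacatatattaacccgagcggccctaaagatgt
Prrx1: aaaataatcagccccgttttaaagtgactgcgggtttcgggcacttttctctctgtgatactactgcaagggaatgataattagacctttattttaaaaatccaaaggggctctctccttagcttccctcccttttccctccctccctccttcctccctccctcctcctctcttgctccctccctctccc
Twist1: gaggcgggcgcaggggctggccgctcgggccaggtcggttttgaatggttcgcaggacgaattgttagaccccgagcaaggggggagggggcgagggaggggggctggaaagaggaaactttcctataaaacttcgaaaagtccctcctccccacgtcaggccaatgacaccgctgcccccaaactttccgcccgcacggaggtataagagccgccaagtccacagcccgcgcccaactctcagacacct
An E-box, a GLI and a HOX-PBX motif were searched on both strands. The E-box CANNTG had 2 matches in the Hand2 stretch, 246 and 235 bases before the start, and 66.2% of all 32841 RefSeq mouse promoters hold at least 1 in a window of 250 bases. Neither the Prrx1 nor the Twist1 stretch held it, and for the 190-base window the share of all promoters was 57.3%. The GLI site GACCACCCA was not found in the 3 stretches and occurs in 0.225% of 250-base and 0.18% of 190-base windows. The HOX-PBX site TGATNGAT was not found either and occurs in 1.82% and 1.48% of such windows. The E-boxes of Hand2 do not overlap. GC content was 49.2% for Hand2, 48.9% for Prrx1 and 62.4% for Twist1, beside a median of 52.4% over all 250-base and 51.6% over all 190-base windows.

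The members split into genes that were high in NMPs and genes that were high in NPs with Hoxb1 and SAG. Hand1, Wt1, Gata4 and Gata6 were highest in Hoxb1-null NMPs and next highest in wild-type NMPs. Hand2, Foxf1, Osr1, Prrx1 and Twist1 were highest in NPs with Hoxb1 and SAG. NMPs and NPs differ in cell type, protocol and library set, so this order is a description with no test. In bulk RNA, fewer cells of a type and less RNA per cell cannot be told apart.

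**Figure D1:**
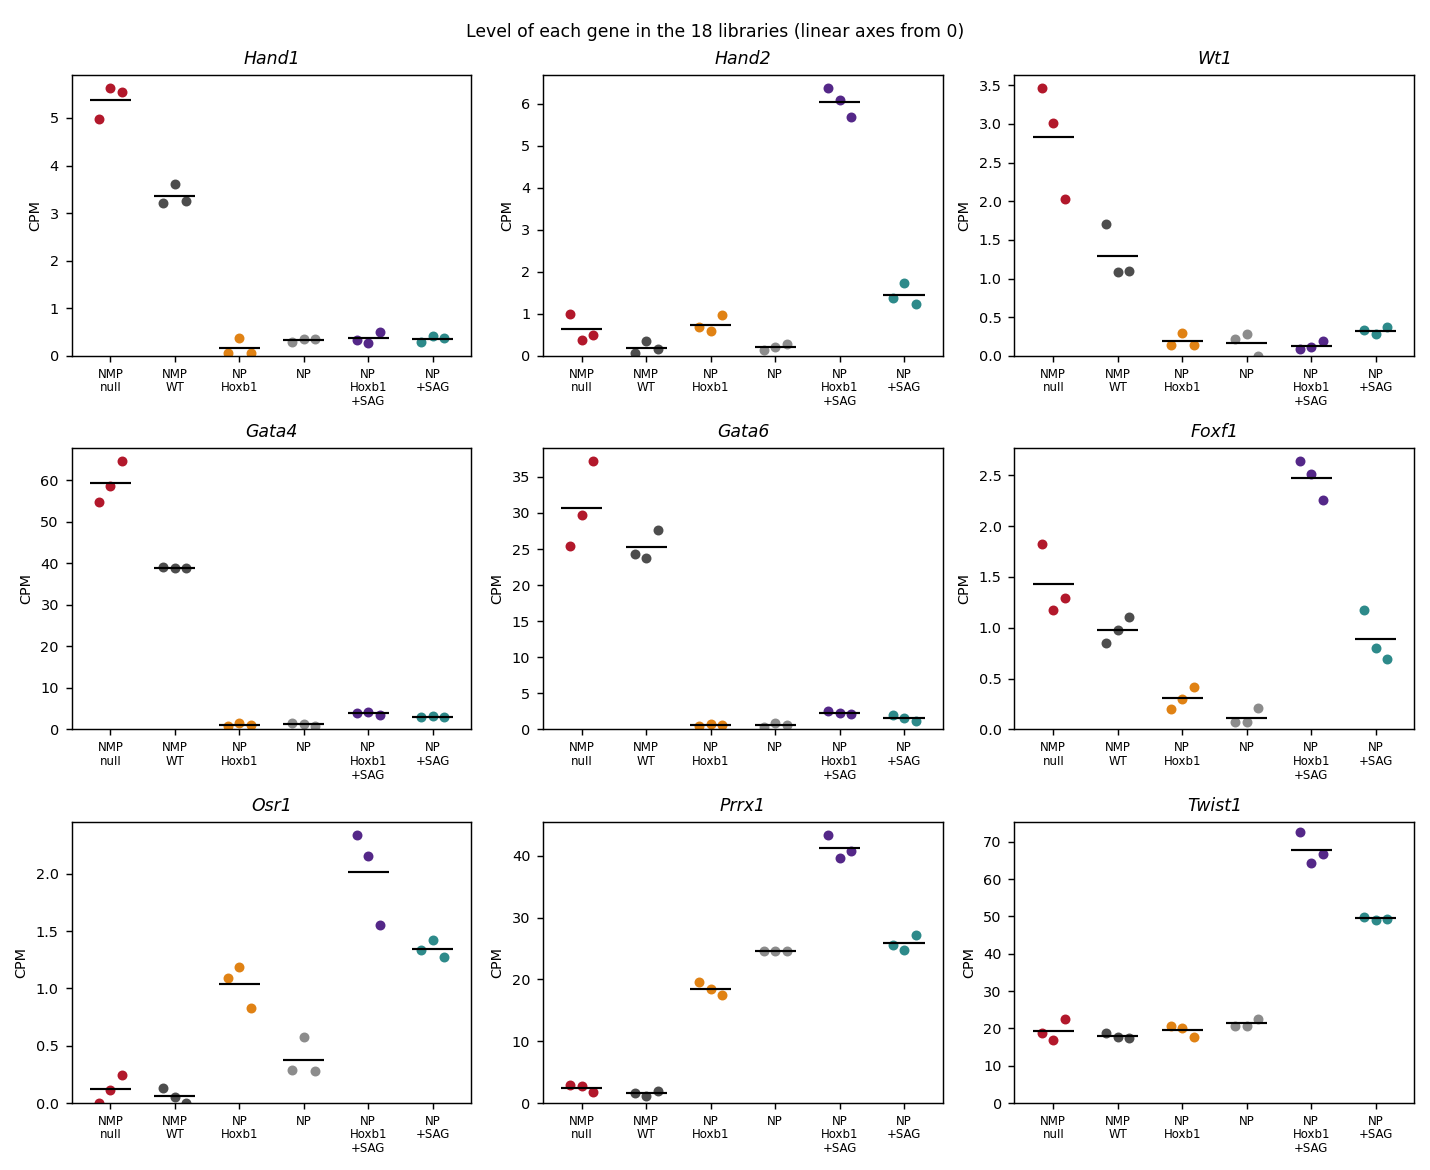
Level of each of the 9 genes in CPM (vertical axis, linear, from 0, scale differing by panel) in the 6 groups; each point is 1 library and each bar the mean of 3. Gata4 and Gata6 stand above 23 CPM in every NMP library and at or below 4.21 CPM in every NP library, while Hand2 stands between 5.68 and 6.38 CPM in NPs with Hoxb1 and SAG and at or below 1.74 CPM elsewhere.

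Gata4 and Gata6 encode zinc finger factors that open chromatin in heart and endoderm precursors. Gata4 (ENSMUSG00000021944, chr14:63198922-63271692, - strand) averaged 59.2 CPM in Hoxb1-null NMPs and 38.9 CPM in wild-type NMPs, and 1.14 CPM in NPs expressing Hoxb1, the lowest group, a 52.2-fold span. Gata6 (ENSMUSG00000005836, chr18:11052510-11085635, + strand) spanned 51.9-fold, with 30.8 and 25.2 CPM in the null and wild-type NMPs. For both genes the NPs with SAG held the middle of the order, with 3.9 and 3.11 CPM of Gata4 and 2.32 and 1.56 CPM of Gata6 with and without Hoxb1. The null and wild-type libraries overlapped for Gata6, and the NPs with and without Hoxb1 overlapped for both genes in the absence of SAG.

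The basic helix-loop-helix genes went different ways. Hand1 (ENSMUSG00000037335, chr11:57828705-57832818, - strand), needed in mouse for trophoblast, yolk sac and the left ventricle, averaged 5.39 CPM in null and 3.36 CPM in wild-type NMPs and at most 0.372 CPM in any NP group. The 4 NP groups overlapped for Hand1 at each step of their order. Hand2 (ENSMUSG00000038193, chr8:57320983-57324517, + strand), needed for the right ventricle, the limb's posterior margin and branchial arches, averaged 6.05 CPM in NPs with Hoxb1 and SAG and 0.2 CPM in wild-type NMPs, the lowest group. Twist1 (ENSMUSG00000035799, chr12:33957671-33959817, + strand), a factor of cranial mesenchyme and limb bud that is also known for driving epithelial-mesenchymal transition, was the most even member, with 67.9 CPM in the highest group and 18 CPM in the lowest, a 3.78-fold span. Twist1 libraries of NPs expressing Hoxb1, null NMPs and wild-type NMPs overlapped.

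Foxf1 (ENSMUSG00000042812, chr8:121084474-121086879, + strand) encodes a forkhead factor of splanchnic mesoderm and a hedgehog target in gut mesenchyme. It averaged 2.47 CPM in NPs with Hoxb1 and SAG, 1.43 CPM in null NMPs, and 0.118 CPM in the lowest group, NPs with neither. Osr1 (ENSMUSG00000048387, chr12:9574442-9581499, + strand), an early zinc finger gene of the kidney field, was near 0 in NMPs, with 0.119 CPM in null and 0.0609 CPM in wild-type libraries, and reached 2.02 CPM in NPs with Hoxb1 and SAG. Wt1 (ENSMUSG00000016458, chr2:105126529-105173616, + strand), a zinc finger gene of kidney, gonad and the heart's epicardium, went the other way, with 2.84 CPM in null NMPs and at most 0.327 CPM in any NP group. Prrx1 (ENSMUSG00000026586, chr1:163245116-163313710, - strand), a paired-type homeobox gene of limb and craniofacial mesenchyme, averaged 41.2 CPM in NPs with Hoxb1 and SAG and 1.6 CPM in wild-type NMPs, a 25.8-fold span. All 4 NP groups stood apart from each other for Prrx1, and its null and wild-type NMP libraries overlapped.

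Divided by the summed exon length given in the table, levels can be set side by side between genes. Twist1 was the most abundant member in every NP group, with 42 CPM per kb in NPs with Hoxb1 and SAG and 30.6 CPM per kb in NPs with SAG alone. Gata4 was the most abundant member in null NMPs, with 15.2 CPM per kb, ahead of 12 CPM per kb of Twist1 and 9.63 CPM per kb of Gata6. In wild-type NMPs Gata4 held 9.97 CPM per kb and Twist1 held 11.1 CPM per kb. Hand2, Foxf1 and Prrx1 lay between 2.32 and 3.75 CPM per kb where they were highest. Wt1 had at most 0.0528 CPM per kb in NPs.

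**Figure D2:**
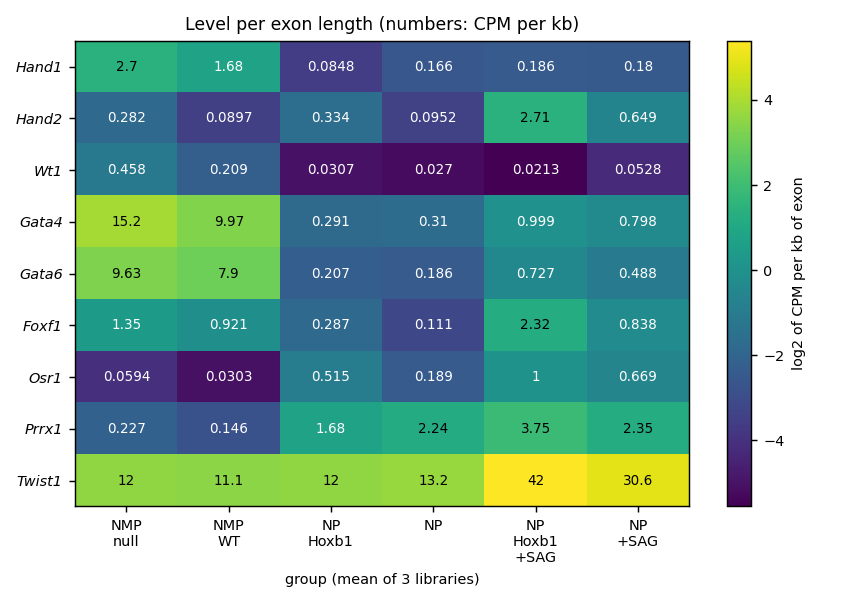
Mean level per kb of exon of the 9 genes (rows) in the 6 groups (columns, 3 libraries each); the colour is the log2 of CPM per kb and the printed numbers are CPM per kb. Twist1 leads in the NP columns and reaches 42 CPM per kb with Hoxb1 and SAG, and Gata4 leads in Hoxb1-null NMPs with 15.2 CPM per kb.

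In NMPs, loss of Hoxb1 went with higher Gata4, Hand1, Wt1 and Prrx1. These rose 1.52-fold, 1.6-fold, 2.22-fold and 1.57-fold. Of the 9 members, 7 passed the filter on low counts, 4 of these were called higher (edgeR quasi-likelihood test, Benjamini-Hochberg adjusted p under 0.05) and 0 lower, where 28.8% of all 15032 genes were called (14.9% higher and 13.9% lower). The members' median log2 change was 0.60, beside -0.00013 over all tested genes. The left panel of the plot of log2 changes shows them.

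Gata4 had 54.7, 58.5 and 64.5 CPM in the null libraries, against 39, 38.9 and 38.9 CPM in the wild-type libraries. Every null library stood above every wild-type library, and the log2 change was 0.60 (SE 0.0603, edgeR adjusted p = 1.06e-07). Hand1 had 4.98, 5.63 and 5.55 CPM in null and 3.21, 3.61 and 3.25 CPM in wild-type libraries. These groups did not overlap either, with a log2 change of 0.67 (SE 0.141, edgeR adjusted p = 0.000908). Wt1 had 3.47, 3.01 and 2.03 CPM in null and 1.7, 1.08 and 1.1 CPM in wild-type libraries, from raw counts of 55, 54 and 33 and of 26, 21 and 19. Its groups stood apart, with a log2 change of 1.15 (SE 0.24, edgeR adjusted p = 0.000883).

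Prrx1 was less secure. It had 2.96, 2.68 and 1.85 CPM in null and 1.64, 1.19 and 1.98 CPM in wild-type libraries. The lowest null library lay below the highest wild-type library, and the log2 change of 0.65 (SE 0.231, edgeR adjusted p = 0.0372) was not called by DESeq2 (adjusted p = 0.131). Leaving out 1 library also ended the call for Prrx1, with edgeR adjusted p-values of 0.141 and 0.12 without null replicates 1 and 2 and of 0.0734 and 0.226 without wild-type replicates 1 and 2.

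Gata6, Foxf1 and Twist1 did not pass the test. Gata6 had 25.4, 29.7 and 37.2 CPM in null and 24.3, 23.8 and 27.6 CPM in wild-type libraries, a log2 change of 0.28 (SE 0.12, edgeR adjusted p = 0.103). Its groups overlapped at the lowest null library. It was called without the filter (edgeR adjusted p = 0.00162), with all 18 libraries in 1 fit (0.0249) and with a replicate block (0.00511). It was also called without null replicate 1 (log2 change 0.40, edgeR adjusted p = 0.00142), and without null replicate 3 the change was 0.13 (edgeR adjusted p = 0.211). Foxf1 had 1.83, 1.17 and 1.29 CPM in null and 0.851, 0.981 and 1.1 CPM in wild-type libraries, which stood apart by a small margin, with a log2 change of 0.53 (SE 0.267, edgeR adjusted p = 0.15). Twist1 had 18.7, 16.8 and 22.4 CPM in null and 18.7, 17.7 and 17.5 CPM in wild-type libraries, a log2 change of 0.10 (SE 0.0912, edgeR adjusted p = 0.444) that was -0.02 without null replicate 3. Null replicate 3 was the library least like its group over all genes, and in it Gata4, Gata6 and Twist1 were highest of the 3 and Wt1 and Prrx1 lowest. Without it the log2 changes of Gata4, Hand1 and Wt1 were 0.54, 0.65 and 1.33, all called by edgeR (adjusted p = 4.2e-09, 0.00188 and 4.69e-05).

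Hand2 and Osr1 were too low in NMPs to be tested. Hand2 had 16, 7 and 8 reads in null and 1, 7 and 3 reads in wild-type libraries, or 1.01, 0.39 and 0.493 CPM against 0.0655, 0.361 and 0.174 CPM. In CPM the null libraries were all above the wild-type ones, but null replicate 2 and wild-type replicate 2 both held 7 reads. Hand2 passes the filter in a fit of all 18 libraries only through the NP groups where it is high, so its value there is not used as support. Osr1 had 6 reads in all in null and 3 in wild-type libraries, a ratio of 2.07 with a 95% counting interval of 0.443 to 12.8, so no difference was detectable at this depth.

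Other genes of the same territories were counted beside the members in NMPs, where 28.8% of all tested genes were called (14.9% higher). Of 18 tested other lateral plate, limb and heart regulators, 6 rose and 2 fell, with a median log2 change of 0.38. The hindlimb T-box gene Tbx4 rose to 11.7 ± 1.06 CPM in null NMPs, against 4.58 ± 1.11 CPM in wild-type NMPs (log2 change 1.37, SE 0.136, edgeR adjusted p = 9.34e-08). The craniofacial homeobox gene Alx1 (log2 change 1.16) and the T-box gene Tbx2 (1.01) also rose. Of 13 other intermediate mesoderm and kidney regulators, 2 rose and 1 fell, which is near the background; the kidney receptor gene Ret rose by 0.44 log2 and the metanephric gene Cited1 fell by 0.24 log2. Of 7 paraxial mesoderm genes, 1 rose and 3 fell, including Tbx6, a segmental plate T-box gene, with 151 ± 7.38 CPM in null and 199 ± 12.2 CPM in wild-type NMPs (log2 change -0.40).

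The markers of the NMPs themselves also differed. Of 6 NMP markers, 1 (Cyp26a1) rose and 5 fell in null NMPs, and the list summed to 1469 to 1596 CPM in null and 1622 to 1795 CPM in wild-type libraries. Fgf8 had 29.8 ± 7.55 CPM in null and 71.3 ± 2.81 CPM in wild-type NMPs (log2 change -1.26, edgeR adjusted p = 0.00187), Wnt3a changed by -0.53 and Cdx2 by -0.46. Of 3 tested neural markers 1 rose, Sox2, with a log2 change of 0.29 (edgeR adjusted p = 0.023).

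Markers of other cell types moved as well. Of 8 tested blood and endothelium genes, 3 rose and 1 fell; the risen ones were Tek and Pecam1, both of endothelium, with log2 changes of 1.33 and 1.34, and the VEGF receptor gene Kdr with 0.72. The sum over that list nevertheless was 144 to 152 CPM in null and 169 to 178 CPM in wild-type libraries. Of 11 endoderm genes, 6 rose and 1 fell, among them Sox17 (0.84), Foxa1 (0.71) and the endocytic adaptor gene Dab2 (0.48), and the list summed to 1853 to 1914 CPM in null and 1881 to 1933 CPM in wild-type libraries. Of 12 mesenchyme and neural crest genes, 4 rose and 2 fell; Postn (1.38), Col1a1 (1.12), the cartilage factor Sox9 (0.81) and Col3a1 (0.54) rose, and Col1a2 (-0.50) and Pdgfra (-0.15) fell. That list summed to 460 to 504 CPM in null and 511 to 517 CPM in wild-type libraries. Of 7 heart muscle genes, 2 rose (Tnnt2, 0.91, and Myl7, 0.81) and 2 fell, and Nppa was at 0 in all 6 NMP libraries. The largest change on that list was the fall of Tnni1 (log2 change -1.39, edgeR adjusted p = 0.00186). The part of these markers' cells in the members' changes was not tested.

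The partners of these factors were read next. Among 9 genes for GATA cofactors, E proteins (the usual dimer partners of Hand and Twist proteins) and Id proteins (which sequester E proteins), 0 rose and 3 fell, where 13.9% of all genes were called lower. The GATA cofactor gene Zfpm1 had 160 ± 10.5 CPM in null and 175 ± 3.44 CPM in wild-type NMPs (log2 change -0.13, edgeR adjusted p = 0.0281). The E protein gene Tcf3 changed by -0.21 and Id1 by -0.36 (edgeR adjusted p = 0.00442 and 0.00294). The others, Zfpm2, Tcf4, Tcf12, Id2, Id3 and Id4, were not called.

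**Figure D3:**
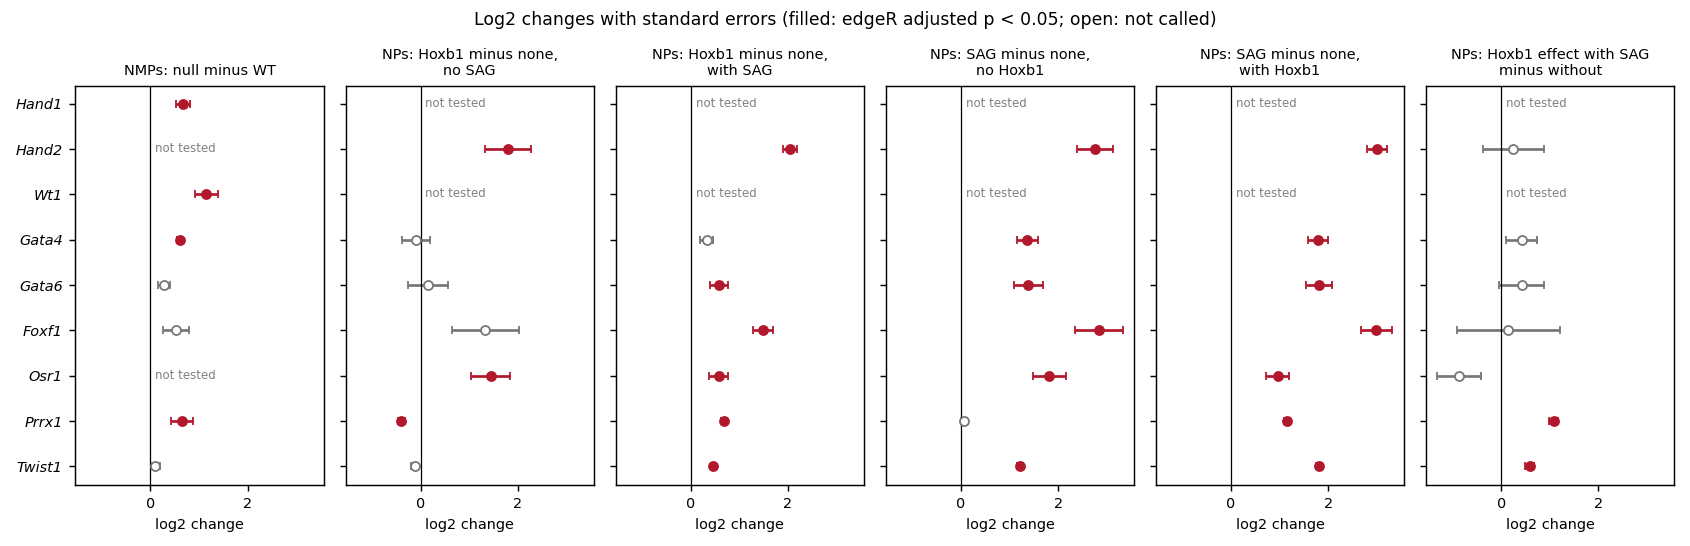
Log2 change (horizontal axis) of each member in the 6 comparisons, with bars of 1 standard error; filled points are called at an edgeR adjusted p under 0.05, open points are not. Hand2 changes by 1.8 and 2.05 with Hoxb1 without and with SAG, and Prrx1 changes by -0.40 and 0.68. The Hand2 value without SAG is not used as support, as Hand2 entered that test only through the libraries with SAG.

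In NPs without SAG, Hoxb1 went with more Hand2 and Osr1 and with less Prrx1. Hand2 rose 3.47-fold and Osr1 2.71-fold, both from very few reads, and Prrx1 fell 1.32-fold. Hand2 entered this test only through the libraries with SAG in the same fit, so its value is not used as support. Of the 9 members 7 were tested, with 2 called higher and 1 lower, where 46.2% of all 16238 genes were called (24.1% higher and 22.1% lower), so the members' share is near the background. The median log2 change was 0.16, beside 0.0031 over all tested genes. With the 6 libraries of this comparison alone, 4 members were tested, with 1 called higher and 1 lower. The 1 called higher, Osr1, passes the filter there only through the group with Hoxb1. Its value is therefore not used as support either.

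Hand2 had 10, 8 and 14 reads in NPs expressing Hoxb1 and 2, 3 and 4 reads in NPs not expressing it. That is 0.682, 0.593 and 0.968 CPM against 0.143, 0.215 and 0.28 CPM, with no overlap and a log2 change of 1.8 (SE 0.473, edgeR adjusted p = 0.00168). Osr1 had 1.09, 1.19 and 0.83 CPM with Hoxb1 and 0.285, 0.574 and 0.28 CPM without it, with no overlap and a log2 change of 1.44 (SE 0.397, edgeR adjusted p = 0.00258). Prrx1 was measured with far more reads. It had 19.6, 18.5 and 17.4 CPM with Hoxb1 and 24.5, 24.6 and 24.6 CPM without it, and the log2 change was -0.40 (SE 0.0717, edgeR adjusted p = 1.1e-05).

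The remaining members gave no call in NPs without SAG. Twist1 had 20.6, 20.2 and 17.6 CPM with Hoxb1 and 20.7, 20.6 and 22.6 CPM without it, with a log2 change of -0.12 (SE 0.0753, edgeR adjusted p = 0.183). Foxf1 had 0.204, 0.297 and 0.415 CPM with Hoxb1 and 0.0713, 0.0718 and 0.21 CPM without it, or 3, 4 and 6 reads against 1, 1 and 3, and its log2 change of 1.33 had an SE of 0.691 (edgeR adjusted p = 0.114). Gata4 and Gata6 lay at or below 1.64 CPM in all 6 libraries and overlapped, with log2 changes of -0.09 and 0.16 (edgeR adjusted p = 0.831 and 0.787). Their signs turned in 2 refits for each gene, reaching 0.18 for Gata4 (without NP replicate 1) and -0.11 for Gata6. Hand2, Foxf1 and Gata6 entered this test only because the fit also holds the libraries with SAG: with the 6 libraries alone, 4 members were tested and 2, Osr1 and Prrx1, were called. Of these, Osr1 passes the filter only through the group with Hoxb1, where it had 16, 16 and 12 reads against 4, 8 and 4 without Hoxb1. Hand1 and Wt1 were not tested, with at most 5 reads in any of the 6 libraries. Hand1 passed the filter in each refit that left out 1 of these 6 libraries. It was called lower only without Hoxb1 replicate 2, the library that holds 5 of the 7 Hand1 reads with Hoxb1 (log2 change -2.17, edgeR adjusted p = 0.0405). In the other refits the log2 change was -0.60 to -1.08 and Hand1 was not called (edgeR adjusted p = 0.236 to 0.527).

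With SAG, Hoxb1 went with more of 6 members. Hand2 rose 4.13-fold, Foxf1 2.79-fold, Prrx1 1.6-fold and Twist1 1.38-fold, and Gata6 and Osr1 each rose 1.49-fold. Of the 9 members 7 were tested, with 6 called higher and 0 lower, where 43.4% of all 16238 genes were called (21.4% higher and 21.9% lower). The median log2 change was 0.58, beside 0.0012 over all tested genes.

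Hand2 had 6.38, 6.1 and 5.68 CPM with Hoxb1 and SAG and 1.38, 1.74 and 1.23 CPM with SAG alone. The lowest library with Hoxb1 was well above the highest without it, with a log2 change of 2.05 (SE 0.144, edgeR adjusted p = 1.27e-15). Foxf1 had 2.64, 2.51 and 2.26 CPM with Hoxb1 and 1.17, 0.8 and 0.697 CPM without it, a log2 change of 1.48 (SE 0.202, edgeR adjusted p = 7.92e-08). Its groups did not overlap. Prrx1 had 43.4, 39.6 and 40.7 CPM with Hoxb1 and 25.6, 24.8 and 27.2 CPM without it, a log2 change of 0.68 (SE 0.0514, edgeR adjusted p = 1.28e-14). Twist1 had 72.6, 64.4 and 66.7 CPM with Hoxb1 and 49.9, 49 and 49.4 CPM without it, a log2 change of 0.46 (SE 0.0453, edgeR adjusted p = 2.38e-11). Both genes had their highest single libraries of the whole series in the group with Hoxb1 and SAG.

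The calls for Gata6 and Osr1 were close to the threshold. Gata6 had 2.51, 2.32 and 2.14 CPM with Hoxb1 and 1.97, 1.6 and 1.11 CPM without it, which stood apart, with a log2 change of 0.58 (SE 0.188, edgeR adjusted p = 0.0115). DESeq2 did not call Gata6 (adjusted p = 0.0935), nor did edgeR without SAG replicate 3 (log2 change 0.39, adjusted p = 0.118) or with all 18 libraries in 1 fit (adjusted p = 0.0508). Osr1 had 2.34, 2.16 and 1.56 CPM with Hoxb1 and 1.34, 1.43 and 1.27 CPM without it, a log2 change of 0.58 (SE 0.193, edgeR adjusted p = 0.0136), also not called by DESeq2 (adjusted p = 0.099). Without Hoxb1 and SAG replicate 1 or 2 the edgeR adjusted p for Osr1 was 0.0797 or 0.0591. Gata4 missed the threshold, with 3.91, 4.21 and 3.58 CPM with Hoxb1 and 3.09, 3.13 and 3.12 CPM without it, groups that did not overlap (log2 change 0.33, SE 0.138, edgeR adjusted p = 0.0506). It was called with the 6 libraries alone (edgeR adjusted p = 0.0407), with all 18 in 1 fit (0.0476) and without Hoxb1 and SAG replicate 3 (0.049). Wt1 was not tested; it had 2, 3 and 5 reads with Hoxb1 and 8, 8 and 9 reads without it. Hand1 was not tested either, with 0.34, 0.27 and 0.506 CPM with Hoxb1 and 0.293, 0.417 and 0.369 CPM without it.

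The Hoxb1 effect on Prrx1 and Twist1 differed between the NPs with and without SAG. For Prrx1 the effect with SAG minus that without SAG was 1.08 log2 (SE 0.0882, edgeR adjusted p = 2.48e-13), which combines a fall of 1.32-fold without SAG and a rise of 1.6-fold with SAG. For Twist1 it was 0.59 log2 (SE 0.0879, edgeR adjusted p = 7.62e-07). These were 2 of 7 tested members, both higher, where 35.5% of all genes were called (16.8% higher and 18.6% lower), so their share is not above the background. The log2 differences of the others were 0.25 for Hand2, 0.42 for Gata4, 0.42 for Gata6, 0.15 for Foxf1 and -0.86 for Osr1, with edgeR adjusted p-values of 0.135 to 0.929. Hand2, Foxf1 and Gata6 entered the test without SAG only because the fit also holds the libraries with SAG. Their differences are therefore not used as support. With an SE of 0.621 for Hand2, the data do not show that its effects are equal in the 2 SAG states. The difference runs across library sets, so SAG and the set cannot be told apart in it. Hoxb1 itself stood at 323 CPM without SAG and 591 CPM with SAG in the NPs expressing it. The level of Hoxb1 therefore cannot be told apart from SAG in the difference either.

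The levels of Prrx1 show the pattern from the side of SAG. Without Hoxb1 it had 25.6, 24.8 and 27.2 CPM with SAG and 24.5, 24.6 and 24.6 CPM without SAG (log2 change 0.07, SE 0.0617, edgeR adjusted p = 0.288), which stood just apart and were not called. With Hoxb1, it had 43.4, 39.6 and 40.7 CPM with SAG and 19.6, 18.5 and 17.4 CPM without SAG, a log2 change of 1.15 (SE 0.0613, edgeR adjusted p = 4.2e-20). The 2 comparisons share no library.

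The other tested members were higher with SAG in both Hoxb1 states. Without Hoxb1, 6 of 7 tested members were called higher, where 72.7% of all genes were called (36.5% higher and 36.3% lower). With Hoxb1, 7 of 7 were called higher, where 72.2% of all genes were called (36.4% higher and 35.8% lower). The share called was thus high over the whole table. The members' median log2 changes were 1.39 and 1.8, beside 0.011 and 0.013 over all tested genes. Hand2 was 6.71-fold higher without Hoxb1 (log2 change 2.75, SE 0.37, edgeR adjusted p = 1.62e-08) and 7.99-fold higher with it (log2 change 3.00, SE 0.201, edgeR adjusted p = 7.37e-17). Foxf1 was 7.14-fold and 7.92-fold higher. Twist1 was 2.32-fold and 3.48-fold higher, Gata4 2.57-fold and 3.44-fold, Gata6 2.62-fold and 3.5-fold, and Osr1 3.52-fold and 1.94-fold. For these 6 genes every library with SAG was above every library without SAG in the same Hoxb1 state. As the libraries with SAG form a set of their own, neither comparison separates SAG from that set. Hand2, Foxf1 and Gata6 entered the NP fit only because it holds the libraries with SAG, where they are higher. Osr1 had 4, 8 and 4 reads with neither SAG nor Hoxb1, and passes the filter through groups where it is higher. The counts, medians and folds that rest on these genes are therefore not used as support.

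Among other regulators of the same territories, the Hoxb1 comparisons in NPs gave changes larger than any member's. With SAG, 12 of 21 tested other lateral plate, limb and heart regulators rose and 4 fell (median log2 change 0.43), and without SAG 4 rose and 3 fell (median 0.19). Over all tested genes 21.4% were called higher and 21.9% lower with SAG, and 24.1% and 22.1% without SAG. The heart T-box gene Tbx20, which is also a hindbrain visceral motor neuron gene, rose to 37.7 ± 0.775 CPM with Hoxb1 and SAG, against 2.2 ± 0.158 CPM with SAG alone (log2 change 4.10, SE 0.095, edgeR adjusted p = 3.62e-32). The forelimb and heart gene Tbx5 (1.42 ± 0.209 CPM against 0.127 ± 0.0736 CPM) and Alx1 (2.58 ± 0.248 CPM against 0.462 ± 0.0937 CPM) also rose. Without SAG, Prrx2, the paralog of Prrx1, had 6.89 ± 0.259 CPM with Hoxb1 and 1.85 ± 0.257 CPM without it (log2 change 1.91, SE 0.165, edgeR adjusted p = 5.58e-13), where Prrx1 fell. The homeobox gene Msx1 rose by 1.02 log2 (edgeR adjusted p = 0.00109).

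The intermediate mesoderm list was led by Pax2 and Pax8, kidney genes that the midbrain and hindbrain also use, and by Ret. Without SAG 8 of 15 tested genes rose and 2 fell, and with SAG 9 rose and 3 fell, with median log2 changes of 0.20 and 0.31. The shares over all tested genes were 24.1% higher and 22.1% lower without SAG, and 21.4% and 21.9% with SAG. Pax2 had 21.4 ± 1.2 CPM with Hoxb1 and 3.88 ± 0.25 CPM without it, and with SAG 4.13 ± 0.203 CPM and 0.538 ± 0.209 CPM. Pax8 had 40.1 ± 1.58 CPM and 7.91 ± 0.872 CPM without SAG, and 5.91 ± 0.452 CPM and 0.373 ± 0.07 CPM with SAG. Ret had 9.08 ± 0.283 CPM and 2.37 ± 0.201 CPM without SAG, and 47.3 ± 1.83 CPM and 5.05 ± 0.456 CPM with SAG. Each of these 3 genes was called higher with Hoxb1 in both SAG states by edgeR, with the highest adjusted p (1.8e-15) for Ret without SAG. Of the 8 tested paraxial mesoderm genes, 1 (Pax9) rose and 0 fell without SAG; with SAG 6 rose and 1 fell, among them Meox1 (log2 change 3.19), Pax9 (1.96) and Meox2 (1.21).

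**Figure D4:**
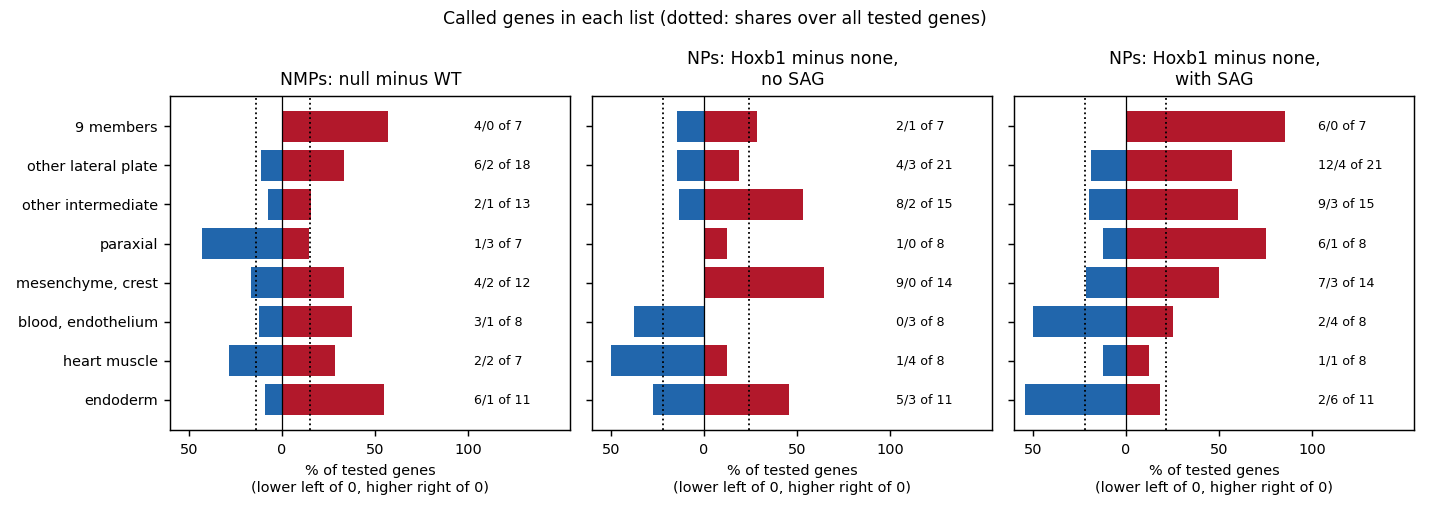
Share of tested genes called higher (right of 0, red) and lower (left of 0, blue) in each gene list for the 3 Hoxb1 comparisons, with higher and lower counts of tested genes printed at the right and dotted lines at the shares over all tested genes. With SAG the members have 6 higher and 0 lower of 7, and the other lateral plate list 12 higher and 4 lower of 21.

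Neural and NMP markers differed with Hoxb1 in NPs, where 46.2% of all tested genes were called without SAG and 43.4% with SAG. Of 4 neural markers, 2 rose (Pax6 and Nes) and 2 fell (Sox1 and Sox2) without SAG, where the list summed to 1145 to 1152 CPM with Hoxb1 and 1206 to 1318 CPM without it. With SAG, 0 rose and 2 fell, Sox1 (99.4 ± 1.41 CPM with Hoxb1 and 207 ± 5.37 CPM without it) and Pax6 (13.8 ± 0.42 CPM and 17.8 ± 0.78 CPM), and the list summed to 754 to 794 CPM with Hoxb1 and 899 to 933 CPM without it. Of 6 NMP markers 0 rose and 4 fell in each SAG state, with log2 changes of -1.81 without SAG and -1.58 with SAG for T. The NMP list summed to 8.01 to 8.3 CPM with Hoxb1 and 22.4 to 24.8 CPM without it in the absence of SAG, and to 14.7 to 16.9 CPM and 44.4 to 47 CPM in its presence.

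Markers of other cells also differed with Hoxb1 in NPs, in mixed directions. Beside these counts, 24.1% of all tested genes were called higher and 22.1% lower without SAG. With SAG the shares were 21.4% and 21.9%. Of 14 mesenchyme and neural crest genes, 9 rose and 0 fell with Hoxb1 without SAG, and 7 rose and 3 fell with SAG. The list summed to 1148 to 1173 CPM with Hoxb1 and 602 to 624 CPM without it in the absence of SAG, where Prrx1 fell and Twist1 was not called, and to 2198 to 2395 CPM and 2240 to 2275 CPM with SAG, where both rose. Col1a2, a fibrillar collagen gene, held much of it without SAG, at 510 ± 13.8 CPM with Hoxb1 and 128 ± 2.16 CPM without it. Postn, a matrix gene, had 126 ± 5.91 CPM with Hoxb1 and 41.1 ± 0.501 CPM without it in the presence of SAG. Of 11 endoderm genes 5 rose and 3 fell without SAG, 2 rose and 6 fell with SAG, and Afp was at 0 in both groups without SAG and in the group with Hoxb1 and SAG. Of 8 heart muscle genes 1 rose and 4 fell without SAG, and 1 rose and 1 fell with SAG, and the list summed to at most 20 CPM in any NP library. Of 8 blood and endothelium genes, 0 rose and 3 fell without SAG, and 2 rose and 4 fell with SAG. The part of these markers' cells in the members' changes was not tested.

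Partner genes changed in both SAG states in NPs, where 46.2% of all tested genes were called without SAG and 43.4% with SAG. Without SAG, 6 of 9 rose with Hoxb1 (Zfpm1, Tcf4, Tcf12, Id1, Id2 and Id3) and 2 fell (Zfpm2 and Id4). With SAG, 3 rose (Zfpm1, Tcf4 and Id2) and 4 fell (Zfpm2, Id1, Id3 and Id4). Id4 had 30.7 ± 1.52 CPM with Hoxb1 and 99 ± 2.42 CPM without it in the presence of SAG (log2 change -1.69, edgeR adjusted p = 5.31e-30), and Id3 had 279 ± 3.2 CPM and 411 ± 13.7 CPM (log2 change -0.55). Without SAG, Id1 had 52.2 ± 2.91 CPM with Hoxb1 and 32.1 ± 2.5 CPM without it (log2 change 0.71, edgeR adjusted p = 9.98e-14). Tcf3 was not called in either state.

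Transcripts near the members were also read. Dnm3os, the RNA that carries the miR-199a and miR-214 hairpins, lies 1020 kb from Prrx1 and had 9.03 ± 0.488 CPM with Hoxb1 and 3.37 ± 0.71 CPM without it in the absence of SAG (log2 change 1.43, edgeR adjusted p = 0.00594). With SAG it had 24.1 ± 5.86 CPM and 8.37 ± 0.457 CPM (log2 change 1.53, edgeR adjusted p = 8.92e-05). Foxc2, 29.3 kb from Foxf1, rose with Hoxb1 in NPs with SAG (7.25 ± 0.536 CPM against 5.25 ± 0.529 CPM, edgeR adjusted p = 0.000308) and in null NMPs (1.41 ± 0.501 CPM against 0.791 ± 0.0826 CPM in wild-type NMPs, edgeR adjusted p = 0.0434). Ferd3l, a neural basic helix-loop-helix gene 28.4 kb from Twist1, fell with Hoxb1, to 0.238 ± 0.12 CPM against 0.828 ± 0.138 CPM without SAG (edgeR adjusted p = 0.00135) and to 1.22 ± 0.212 CPM against 1.95 ± 0.244 CPM with SAG (edgeR adjusted p = 0.00534). Wt1os, the antisense transcript that starts 0.019 kb from Wt1, was below the filter in all 3 comparisons. Hand2os1, Fendrr, Foxl1 and Gata6os were not analysed here.

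The members' patterns were compared over libraries as a description. Over the 12 NP libraries, Hand2 and Foxf1 had a Pearson r of 0.98 on log2(CPM + 0.5) and Gata4 and Gata6 one of 0.892 (0.991 over all 18 libraries). Prrx1 and Osr1 were less alike over the NP libraries, with r = 0.559. These points share library sets and treatments, so the r mostly sets groups apart. Over all 18 libraries and among 11402 genes, those most like Twist1 were Foxa2 (r = 0.976), Synpo (0.975) and Timp3 (0.971). Foxa2, a floor plate and endoderm gene, had 96.4 ± 2.34 CPM with Hoxb1 and SAG, 79 ± 2.09 CPM with SAG alone, 3.93 ± 0.569 CPM with Hoxb1 and 8.72 ± 0.819 CPM with neither. Those most like Prrx1 were Ttc39c (0.994), Scg2 (0.992) and Adgrv1 (0.991), and those most like Gata4 were Kti12 (0.996), Txnrd1 (0.995) and Rest (0.995).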

How the data were processed

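The table deposited by the authors holds raw, unscaled read counts for each Ensembl gene, made with bcl2fastq 1.8.2 and featureCounts 1.4.6 on mm10, per the submitters' processing notes. Per the labels' protocols, poly(A) RNA went into strand-specific libraries; the aligner, annotation release, strand setting and handling of multiply mapped reads were not given in the sources used here. An Ensembl ID table gave symbols for 35449 of 37224 genes. No exon of a member is shared with another gene of the table.

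Counts were tested in R 4.3.3 with edgeR 4.0.16 (filterByExpr by group, TMM scaling, robust quasi-likelihood F-tests, Benjamini-Hochberg adjustment over all tested genes, called under 0.05). A first fit held the 6 NMP libraries (15032 genes, biological coefficient of variation 3.82%) and another the 12 NP libraries with a mean for each group (16238 genes, 2.91%). An SE was derived from the F statistic (absolute log2 change over its square root). CPM values use effective sizes from TMM over all 18 libraries. Tests were checked on simulated data with a constant spread and with changes placed only in genes of moderate or high counts. The check therefore does not cover members with few reads. Replicate pairs differed by a chi-square of 1.35 to 5.07 per gene, so no pair agreed within sampling noise.

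Alternatives were DESeq2 1.42.0, RLE scaling, no filter, a replicate block, all 18 libraries in 1 fit, only the 6 libraries of a comparison, and each library left out. All members were named; from each other list, up to 3 called genes with the largest change and at least 1 CPM were named per Hoxb1 comparison, and partners and neighbouring transcripts in full. A gene that this rule names is not reported here. The members and lists were chosen with earlier results of these data known. The counting interval covers counting error only.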

Additional observations from a re-analysis of the deposited data

Results flagged for a closer look

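Prrx1 and Twist1 stood out because their response to Hoxb1 differed between NPs with and without SAG, by the test of the interaction in edgeR. For Prrx1 the difference was 1.08 log2 (adjusted p = 2.48e-13): 3 of 3 libraries with Hoxb1 were above all libraries without it in the presence of SAG, and 3 of 3 were below in its absence. For Twist1 the difference was 0.59 log2 (adjusted p = 7.62e-07): 3 of 3 libraries with Hoxb1 were above with SAG, and without SAG the change of -0.12 was not called. SAG, the library set and the higher level of Hoxb1 in NPs with Hoxb1 and SAG cannot be told apart in either value.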

How the results depend on the processing

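Over 529 refits of the 42 member results, 510 kept the side of the threshold, 11 lost a call, 8 gained a call and 0 called values changed sign. Leaving out each library in turn gave 3 to 4 called members in NMPs (main 4), 3 to 4 for Hoxb1 without SAG (main 3), 5 to 7 for Hoxb1 with SAG (main 6), 2 for the difference, 6 for SAG without Hoxb1 and 7 to 8 for SAG with Hoxb1; the eighth is Hand1 without Hoxb1 replicate 2 (log2 change 2.33, edgeR adjusted p = 0.00869). Over all genes the NMP comparison called 4327 genes, and 2928 to 5097 with a library left out. DESeq2 called 3 members in NMPs and 4 for Hoxb1 with SAG. Without a filter or with all 18 libraries in 1 fit NMPs gave 6, with Gata6 and Hand2 added. Hand2 is below the filter in the NMP libraries alone, so its call is not used as support. RLE scaling moved the median of all genes by less than 0.005 log2. Same-numbered libraries did not deviate together throughout (r of -0.072 to 0.065 in NMPs, 0.015 to 0.033 without SAG, 0.016 to 0.34 with SAG), so the numbers were not used as pairs. With a replicate block, members called were 5, 3, 7, 2, 6 and 7 in the 6 comparisons as listed above; it added Gata6 in NMPs (adjusted p = 0.00511) and Gata4 for Hoxb1 with SAG (0.0441). Depth limits Hand1 and Wt1 in NPs and Osr1 in NMPs, which held few reads.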

Other observations

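The gene lists around the members were also counted in the comparisons of NPs with SAG and NPs without SAG, where SAG and the library set cannot be told apart. Of 21 other lateral plate, limb and heart regulators, 15 rose and 1 fell with SAG in NPs without Hoxb1, and 17 rose and 2 fell in NPs with Hoxb1, with median log2 changes of 1.62 and 2.08. Of 14 mesenchyme and neural crest genes, 11 rose and 3 fell without Hoxb1, and 9 rose and 4 fell with it. Of 11 endoderm genes, 9 rose and 0 fell without Hoxb1, and 9 rose and 1 fell with it. Paraxial mesoderm genes were mixed, with 2 of 8 higher and 5 lower without Hoxb1, and 4 higher and 2 lower with it. These counts are set against 72.7% and 72.2% of all tested genes called without and with Hoxb1.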
